A study of Mus musculus with 4 samples.

Results

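Slc7a11, Gclc, Gclm, Gss, Gsr, Gpx1, Gpx4, Txnrd1, Hmox1 and Nqo1 encode the cystine transporter, the enzymes that make, recycle and spend glutathione, and companion antioxidant enzymes. These 10 genes of 23444 symbols were chosen by name, with the FPKM of these libraries and the called rise of Slc7a11 already known, so their differences between genotypes are given as a description and do not support a claim about the group. FPKM is the number of fragments scaled by transcript length and by the total mapped, and can be compared between genes. All 10 were found, and 9 of them averaged 1 FPKM or more across the 4 libraries and so entered the fit across 11361 genes. Nqo1, at a mean of 0.829 FPKM, did not.

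The RNA came from primary mouse oligodendrocytes, expanded as precursor cells and then kept with T3 (thyroid hormone, which sets off their differentiation) for 1 day. There were 2 control libraries, whose shared genotype label lists both lncOL1+/+ and lncOL1+/- without assigning either to a library, and 2 knockout libraries labelled lncOL1-/-. All 4 were of a mixed strain background. The study asked which genes differ when the long noncoding RNA lncOL1 is missing. No label ties the libraries to separate animals or cultures, so the p-values measure only the spread between libraries, which may be technical.

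Slc7a11 is the light chain of the exchanger that brings cystine into the cell in return for glutamate. Inside, cystine is reduced to cysteine, and glutamate-cysteine ligase followed by glutathione synthetase builds glutathione from it. Glutathione peroxidases spend glutathione on peroxides and glutathione reductase restores it with NADPH. Many of these genes are classical targets of the transcription factor NRF2 (Nfe2l2), and Slc7a11 is also a target of ATF4, the factor of the amino acid response. Oligodendrocytes are rich in iron and lipid, and cells of this lineage are known to be sensitive to cystine deprivation.

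lncOL1 (9630013A20Rik) fell from 28.9 and 34.0 FPKM in control to 5.54 and 5.06 in knockout, a log2 difference of -2.36 (SE 0.097, limma adjusted p = 0.000389). The direction is that of the labels, but the knockout mean was still 0.169 of the control mean. The source of this remaining signal was not tested. The libraries had summed FPKM of 373484 to 383128 and between 11292 and 11365 genes at 1 FPKM or more, and correlated at 0.9818 to 0.9845 with each other over the genes tested. The oligodendrocyte markers were high in every library, and no library stood apart. The files give no read counts.

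Slc7a11 was higher in both knockout libraries than in either control library. It had 2.04 and 2.22 FPKM in control replicates 1 and 2, and 5.24 and 4.95 FPKM in knockout replicates 1 and 2. The groups did not overlap, and the gap between them was far wider than the distance within either. The means were 2.13 ± 0.121 FPKM in control and 5.097 ± 0.206 FPKM in knockout (SD, n = 2 each), a ratio of 2.39. On the log2(FPKM + 1) scale the difference was 0.96 (SE 0.085, limma adjusted p = 0.00581). That scale understates the change of a gene at this level, and with a pseudocount of 0.1 the difference was 1.22. Slc7a11 was the 1 member called, against 0.528% of all tested genes called higher and 0.783% called lower. Ranked by the size of the rise, it was number 10 among the 60 genes called higher and number 47 among all 11361 tested genes. The call was lost without control replicate 1 (adjusted p = 0.0605), without knockout replicate 1 (adjusted p = 0.0859), without knockout replicate 2 (adjusted p = 0.101) and with no filter on low values (adjusted p = 0.0629), while the difference stayed between 0.92 and 1.0 with each library left out. Slc7a11 stands in the authors' deposited table at 2.64 FPKM (control) and 6.23 FPKM (knockout), a log2 fold change of 1.24, and lists its q-value as 0.

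Slc7a11 lies on the minus strand of chromosome 3, from 50364936 to 50443613 in the files (mm10). Its promoter is shown because Slc7a11 is the member that differs and because the ATF4 and NRF2 motifs within it can be read beside the levels of those factors below. The sequence is from RefSeq (GRCm38.p6, the mm10 assembly), chr3:50443564-50443863 on the minus strand, and runs 5′ to 3′ from 250 bases before to 50 bases after the gene's start. Capitals mark matches to TGANNNNGC, the core of the antioxidant response element to which NRF2 binds, and to TGATGNAAN, the core of the amino acid response element to which ATF4 binds, each sought on both strands. The promoter of Gclm, which was not called, is given for comparison (chr3:122245307-122245606, plus strand).

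Slc7a11: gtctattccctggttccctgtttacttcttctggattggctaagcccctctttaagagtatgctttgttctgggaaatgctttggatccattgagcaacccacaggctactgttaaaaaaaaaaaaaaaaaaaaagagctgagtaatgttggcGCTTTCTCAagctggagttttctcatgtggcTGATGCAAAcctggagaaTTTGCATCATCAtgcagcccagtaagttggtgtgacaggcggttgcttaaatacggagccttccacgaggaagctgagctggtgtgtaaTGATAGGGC

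Gclm: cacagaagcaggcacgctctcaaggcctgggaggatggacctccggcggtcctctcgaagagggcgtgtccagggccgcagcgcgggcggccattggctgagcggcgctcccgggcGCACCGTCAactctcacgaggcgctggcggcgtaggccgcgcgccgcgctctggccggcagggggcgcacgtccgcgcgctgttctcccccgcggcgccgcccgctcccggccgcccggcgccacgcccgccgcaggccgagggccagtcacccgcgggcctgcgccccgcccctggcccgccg

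The Slc7a11 promoter held 2 matches to TGATGNAAN, at 66 to 58 bases upstream on the forward strand and at 48 to 40 bases upstream on the reverse strand. It held 3 matches to TGANNNNGC, and the one at 45 to 37 bases upstream overlapped the second amino acid response match. Of 32851 promoters of this length in the table, 3.95% held TGATGNAAN and 41.3% held TGANNNNGC. Of the 7 members with a promoter in the table, Slc7a11 alone held TGATGNAAN, while Slc7a11, Gclm and Txnrd1 held TGANNNNGC. The motif TGATGNAAN was added after the sequences had been read. A match describes letters and does not show binding.

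**Figure D1:**
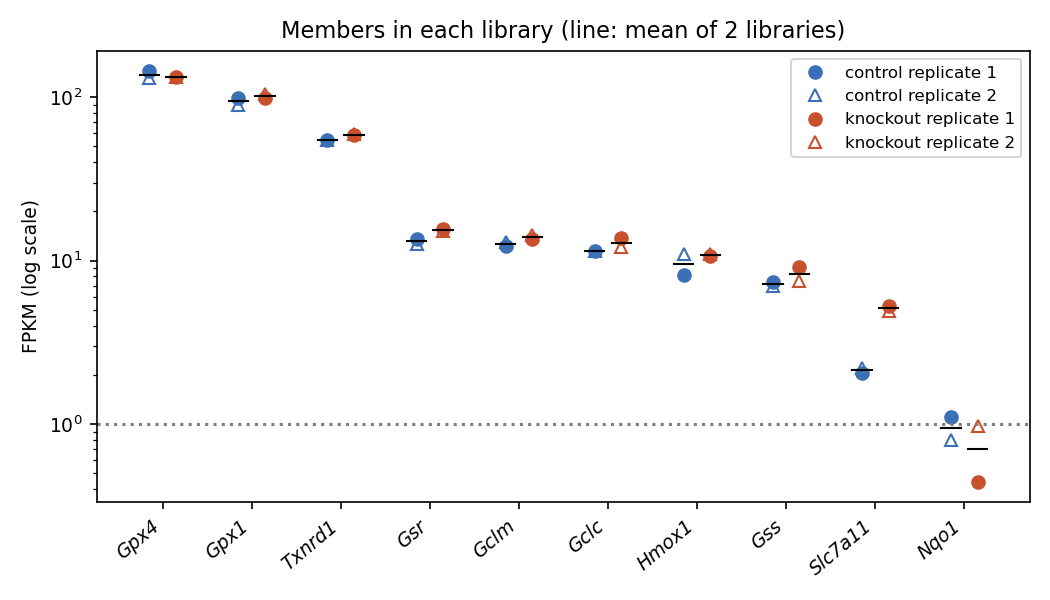
FPKM of the 10 members in each of the 4 libraries, on a log scale, ordered by mean level, with circles for replicate 1, triangles for replicate 2, a short line at each group's mean and a dotted line at 1 FPKM. The Slc7a11 groups are well apart, at 2.04 and 2.22 FPKM in control and 5.24 and 4.95 FPKM in knockout, while the other members sit close together across genotypes relative to the range between genes.

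The levels of the members spanned a wide range. Gpx4 had the highest mean at 135 FPKM, followed by Gpx1 at 98.0 and Txnrd1 at 56.8. Gsr, Gclm and Gclc came next with means of 14.3, 13.3 and 12.2 FPKM, then Hmox1 at 10.2, Gss at 7.76, Slc7a11 at 3.61 and Nqo1 at 0.829. In this order the ranges over the 4 libraries overlapped between Gsr and Gclm, between Gclm and Gclc, and between Hmox1 and Gss, and no other neighbours overlapped. Gpx4 lay above 95.8% of the tested genes by level and Slc7a11 above 20.2%. The transporter was thus among the lower expressed members even in knockout.

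The synthesis enzymes followed. Gclc is the catalytic subunit of glutamate-cysteine ligase, which makes the first and rate-limiting step, and Gclm is its modifier subunit. Gclc (chromosome 9, 77754535 to 77794489) had 11.5 and 11.4 FPKM in control and 13.7 and 12.1 FPKM in knockout. Gclm (chromosome 3, 122245557 to 122267215) had 12.2 and 12.9 FPKM in control and 13.6 and 14.4 FPKM in knockout. In both genes the lower knockout library was just above the higher control library. Gclc differed by 0.16 (SE 0.082) and Gclm by 0.14 (SE 0.073) on the log2 scale, and neither passed the test (limma adjusted p = 0.480 and 0.471). The ratio of Gclc to Gclm FPKM was 0.937 and 0.880 in control and 1.01 and 0.838 in knockout, so the knockout ratios enclosed the control ratios. Gclm exons overlap Gm17494 on the opposite strand and the pseudogene Gm6061 on the same strand in GENCODE. Whether counting used strand is not stated in the sources, and reads of these genes cannot be told apart from those of Gclm.

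Gss, glutathione synthetase, completes the tripeptide. Gss (chromosome 2, 155563183 to 155592706) had 7.43 and 6.95 FPKM in control and 9.12 and 7.52 FPKM in knockout. The higher knockout library was replicate 1, and replicate 2 was only slightly above control. The difference was 0.18 (SE 0.0999, limma adjusted p = 0.505), and fell to 0.06 without knockout replicate 1. Exons of Gss overlap those of Acss2, Gssos1 and Gssos2 on the opposite strand, with the same limit.

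Gsr, glutathione reductase, regenerates reduced glutathione. Gsr (chromosome 8, 33653238 to 33698162) had 13.6 and 12.7 FPKM in control and 15.6 and 15.2 FPKM in knockout. Both knockout libraries were above both controls, with little spread in either group. The difference of 0.21 (SE 0.072) had the next smallest p of the members after Slc7a11 and did not pass over all genes (limma unadjusted p = 0.0220, adjusted p = 0.258).

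The glutathione peroxidases were the most abundant members. Gpx1 is the cytosolic selenoenzyme that reduces hydrogen peroxide, and Gpx4 is the one that reduces lipid peroxides in membranes and thereby restrains ferroptosis. Gpx1 (chromosome 9, 108339080 to 108340344) had 99.5 and 89.3 FPKM in control and 98.4 and 104.7 FPKM in knockout. Gpx4 (chromosome 10, 80053510 to 80056439) had 144.0 and 130.4 FPKM in control and 132.2 and 133.7 FPKM in knockout. The groups overlapped for both. Gpx1 differed by 0.11 with a 95% interval of -0.09 to 0.30, and Gpx4 by -0.04 with an interval of -0.23 to 0.14 (limma adjusted p = 0.657 and 0.882). Without control replicate 1 the Gpx4 difference turned to 0.03. Gpx4 has a pseudogene, Gpx4-ps2, with which it may share reads.

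Txnrd1, thioredoxin reductase of the cytosol, is a selenoenzyme that keeps thioredoxin reduced in parallel with the glutathione system. Txnrd1 (chromosome 10, 82833951 to 82897724) had 54.7 and 54.4 FPKM in control and 58.6 and 59.6 FPKM in knockout. The groups did not overlap, but the step was small, with a ratio of 1.08 and a log2 difference of 0.11 (SE 0.066, limma adjusted p = 0.523).

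Hmox1, the inducible heme oxygenase, and Nqo1, a quinone reductase, are the members most often used as readouts of NRF2. Hmox1 (chromosome 8, 75093618 to 75100593) had 8.18 and 10.95 FPKM in control and 10.7 and 10.9 FPKM in knockout. The knockout libraries lay between the controls, and control replicate 1 was the low one. The difference was 0.17 (SE 0.125, limma adjusted p = 0.640) and turned to -0.02 without control replicate 1. Nqo1 (chromosome 8, 107388225 to 107403205) had 1.11 and 0.797 FPKM in control and 0.445 and 0.968 FPKM in knockout. Its groups overlapped, and with no filter on low values its difference was -0.21 (limma adjusted p = 0.730). The authors' deposited table gives Nqo1 a log2 fold change of -0.48 with q = 0.783.

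Seen side by side, 8 of the 9 tested members had a positive difference, where 51.4% of all tested genes had one. Of the 9, 1 passed the test and 8 did not. Both knockout libraries were above both control libraries for 6 of the 9 and below for 0, where 22.6% of all tested genes had both knockout libraries above. These counts describe genes chosen with the values known. The median log2 difference of the 9 was 0.157, against 0.005 over all tested genes. Leaving aside Slc7a11, the differences lay between -0.04 and 0.21, and the largest upper end of a 95% interval was 0.47, for Hmox1. The lower end of the Slc7a11 interval was 0.76. The intervals of 7 of the 9 members included 0, those of Slc7a11 and Gsr being above it. The authors' deposited table called Slc7a11 higher and none of the other members, with q from 0.534 for Gsr to 0.995 for Gpx1, and called 1.74% of the genes it tested higher.

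**Figure D2:**
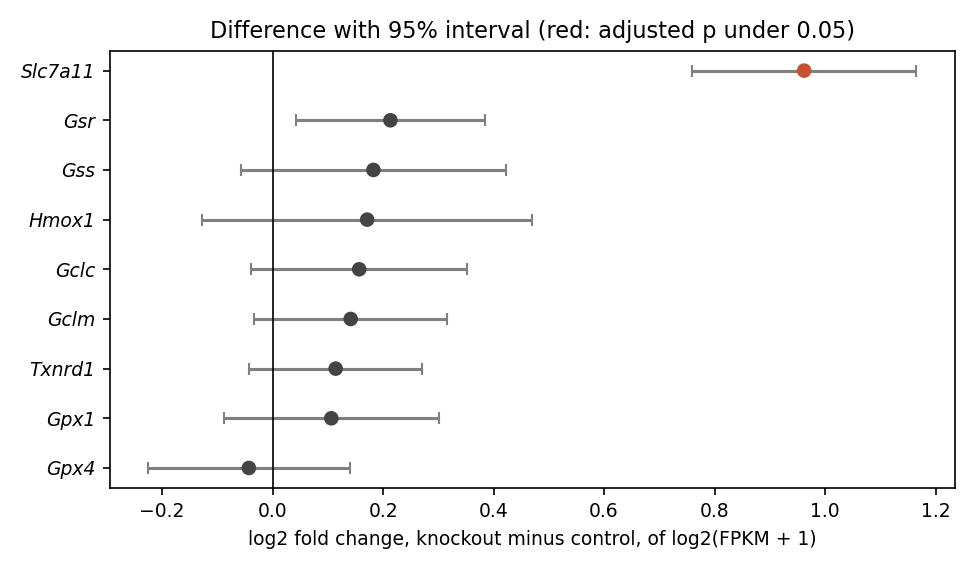
Difference between knockout and control on the log2(FPKM + 1) scale for the 9 tested members, each with its 95% interval from limma, in red where the adjusted p is under 0.05. Slc7a11 stands at 0.96, and the remaining members lie between -0.04 and 0.21.

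**Figure D3:**
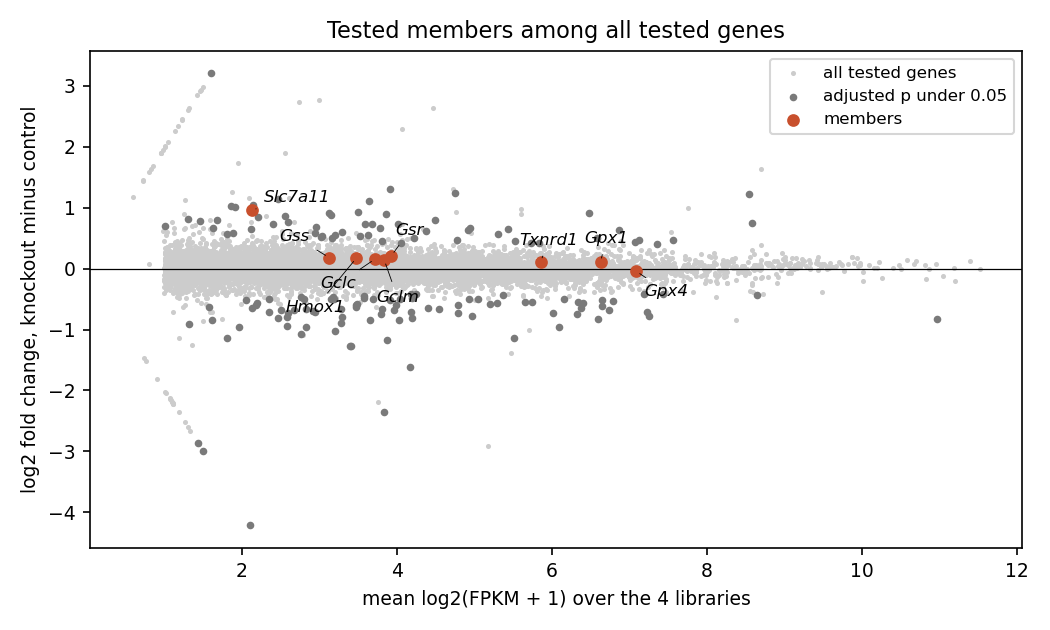
Log2 difference between knockout and control against mean log2(FPKM + 1) for all 11361 tested genes (light grey), the 149 called genes (dark grey) and the 9 tested members (red). Slc7a11 lies above the main body of genes at its level, and the remaining members lie within it.

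The wider pathway was taken from 11 lists drawn up with earlier results of these data known. They held 191 matched genes besides the members, of which 160 were tested. Of these 0 rose, 2 fell and 158 did not pass (limma), where 0.528% of all tested genes were called higher and 0.783% lower. An unadjusted p under 0.05 was reached by 12 higher and 15 lower genes of the 160, where 7.13% of all tested genes reached it higher and 6.58% lower. The authors' deposited table tested 163 of the 191 and called 1 higher and 14 lower, against 1.74% higher and 4.04% lower of all genes it tested. The median difference of the tested genes was 0.037. Both called genes were lower in knockout.

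The regulators of NRF2 were the first of these lists. Of 11 tested, 1 fell and 0 rose, with a median of -0.01, where 0.783% of all tested genes were called lower. The gene that fell was Bach2, a transcriptional repressor that shares its partner proteins and binding sites with NRF2. Bach2 had 5.98 and 6.35 FPKM in control and 3.36 and 3.58 FPKM in knockout, with no overlap. Its difference was -0.68 (SE 0.080, limma adjusted p = 0.0149), a call that did not survive the removal of any library (adjusted p 0.119 to 0.158). The authors' deposited table gives Bach2 a log2 fold change of -0.90, calls it lower and lists its q-value as 0. Nfe2l2 itself, named outside the rule, had 5.08 and 5.42 FPKM in control and 5.01 and 4.98 FPKM in knockout. Its difference was -0.06 (limma adjusted p = 0.825). The RNA of Nfe2l2 does not show the amount of NRF2 protein. Keap1, the adaptor that targets NRF2 for degradation and also named outside the rule, differed by 0.05 (limma adjusted p = 0.878) and turned to -0.04 without control replicate 2. Sqstm1, the autophagy receptor that binds Keap1, Rbx1, a subunit of the ligase that Keap1 serves, and Nfe2l1, a relative of NRF2, differed by -0.002, -0.04 and 0.12, none past the test.

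Of 22 tested genes among further textbook NRF2 targets, 0 were called, with a median of 0.06 and 15 positive differences. Ftl1, the ferritin light chain, was the most abundant at 1171 and 1158 FPKM in control and 1136 and 1202 FPKM in knockout, and differed by 0.005, or -0.01 after quantile normalization. Ugdh, UDP-glucose dehydrogenase, differed by 0.29 (limma adjusted p = 0.121), and the authors' deposited table calls it higher with q = 0.0107. Taldo1, transaldolase of the pentose phosphate pathway, went the other way, with 541.1 and 496.7 FPKM in control and 455.3 and 422.3 FPKM in knockout. Its difference was -0.24 (limma adjusted p = 0.253), and the authors' deposited table calls it lower with q = 0.0022.

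Taldo1 also belongs to the NADPH supply list, of which 0 of 19 tested were called, with a median of 0.04. Idh1, the cytosolic isocitrate dehydrogenase that yields NADPH, had 303.2 and 302.4 FPKM in control and 272.9 and 241.1 FPKM in knockout. Me2, a malic enzyme of mitochondria, had 39.1 in both control libraries and 33.7 and 31.1 FPKM in knockout. The groups did not overlap for either, at differences of -0.24 and -0.26 (limma adjusted p = 0.265 and 0.174), and the authors' deposited table calls both lower with q = 0.00592 and 0.00534. Mthfd2, of mitochondrial one-carbon metabolism, differed by 0.25 (limma adjusted p = 0.247).

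In the list of other glutathione genes, 0 of 27 tested were called and the median was 0.06. The smallest p were those of Gsto1, a glutathione transferase of the omega class, and Glo1, the glyoxalase that uses glutathione to clear methylglyoxal. Gsto1 had 39.0 and 37.4 FPKM in control and 28.8 and 25.4 FPKM in knockout, and Glo1 had 199.1 and 204.0 FPKM in control and 156.8 and 152.1 FPKM in knockout. In both genes each knockout library was below each control library. Their differences were -0.48 and -0.38, just short of the threshold (limma adjusted p = 0.0544 and 0.0579), and the authors' deposited table calls both lower with q = 1.44e-05 and 0.000141. Gstm5, an abundant glutathione transferase, differed by 0.002.

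Cystine and glutamate transport and cysteine synthesis gave 0 called of 20 tested, with a median of 0.03. Slc3a2 is the heavy chain that carries Slc7a11 to the cell surface and was named outside the rule for that reason. It had 28.7 and 29.0 FPKM in control and 28.3 and 27.8 FPKM in knockout, with a difference of -0.04 (SE 0.066, limma adjusted p = 0.874). The heavy chain, which serves several transporters, was thus at a higher level than the light chain in every library. Slc1a1, a glutamate and cysteine transporter, differed by 0.05 and Glul, glutamine synthetase, by 0.01. Slc1a2, a glutamate transporter typical of astrocytes, had 13.9 and 14.7 FPKM in control and 11.5 and 10.02 FPKM in knockout (log2 difference -0.38, limma adjusted p = 0.109), and the authors' deposited table calls it lower. Cbs, which starts cysteine synthesis from homocysteine, had 5.07 and 4.39 FPKM in control and 3.06 and 3.19 FPKM in knockout (log2 difference -0.47, limma adjusted p = 0.0745). Neither passed the test.

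ATF4 and its textbook targets had a median of 0.006, and 0 of 22 tested were called. Atf4 had 88.4 and 86.1 FPKM in control and 100.6 and 93.3 FPKM in knockout, with a difference of 0.15 (limma adjusted p = 0.439). Asns, asparagine synthetase, differed by 0.15 and Psat1, of serine synthesis, by -0.04 (limma adjusted p = 0.402 and 0.880). The RNA of ATF4 does not show the amount of its protein, which is set largely by translation.

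Of 17 tested thioredoxin and peroxiredoxin genes 0 were called, with a median of 0.07. Prdx2, a peroxiredoxin, had 714.8 and 695.4 FPKM in control and 697.5 and 734.2 FPKM in knockout, with overlapping groups. Prdx1 differed by -0.06 and Msrb1, a methionine sulfoxide reductase, by 0.23 (limma adjusted p = 0.853 and 0.206). Txnip, the inhibitor of thioredoxin, had 4.82 and 4.96 FPKM in control and 3.38 and 3.14 FPKM in knockout, with a difference of -0.47 just short of the threshold (limma adjusted p = 0.0561). The list for superoxide and peroxide removal had 0 called of 3 tested, with a median of 0.01, and Sod1, Sod2 and Cat differed by 0.01, 0.09 and -0.08.

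Of 13 tested genes of heme and bilirubin metabolism 1 fell and 0 rose, with a median of -0.09. Over all tested genes 0.783% were called lower. Cpox, coproporphyrinogen oxidase of heme synthesis, had 43.9 and 43.4 FPKM in control and 30.2 and 27.8 FPKM in knockout, and the groups stood clearly apart. Its difference was -0.57 (SE 0.073, limma adjusted p = 0.0206), a call that did not survive the removal of any library (adjusted p 0.0993 to 0.180). Alad, an earlier enzyme of that pathway, had 57.1 and 59.2 FPKM in control and 46.7 and 47.4 FPKM in knockout (log2 difference -0.30, limma adjusted p = 0.109), and the authors' deposited table calls both lower. Slc48a1, a heme transporter, differed by 0.15 (limma adjusted p = 0.553).

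The ferroptosis list gave 0 called of 15 tested, with a median of 0.005. Fth1, the ferritin heavy chain, had 425.3 and 436.1 FPKM in control and 471.9 and 433.4 FPKM in knockout, with overlapping groups. Fdft1, squalene synthase of the cholesterol pathway, differed by 0.30, and Sat1, which acetylates polyamines, by -0.31 (limma adjusted p = 0.132 and 0.112). Selenoprotein synthesis, on which Gpx1, Gpx4 and Txnrd1 depend, had 0 called of 11 tested and a median of 0.09. Sephs2, which supplies activated selenium, differed by 0.03, Secisbp2, which reads the selenocysteine signal, by 0.23, Trnau1ap by 0.21 and Sepp1, the selenium carrier, by 0.31 (limma adjusted p = 0.931, 0.231, 0.404 and 0.371).

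**Figure D4:**
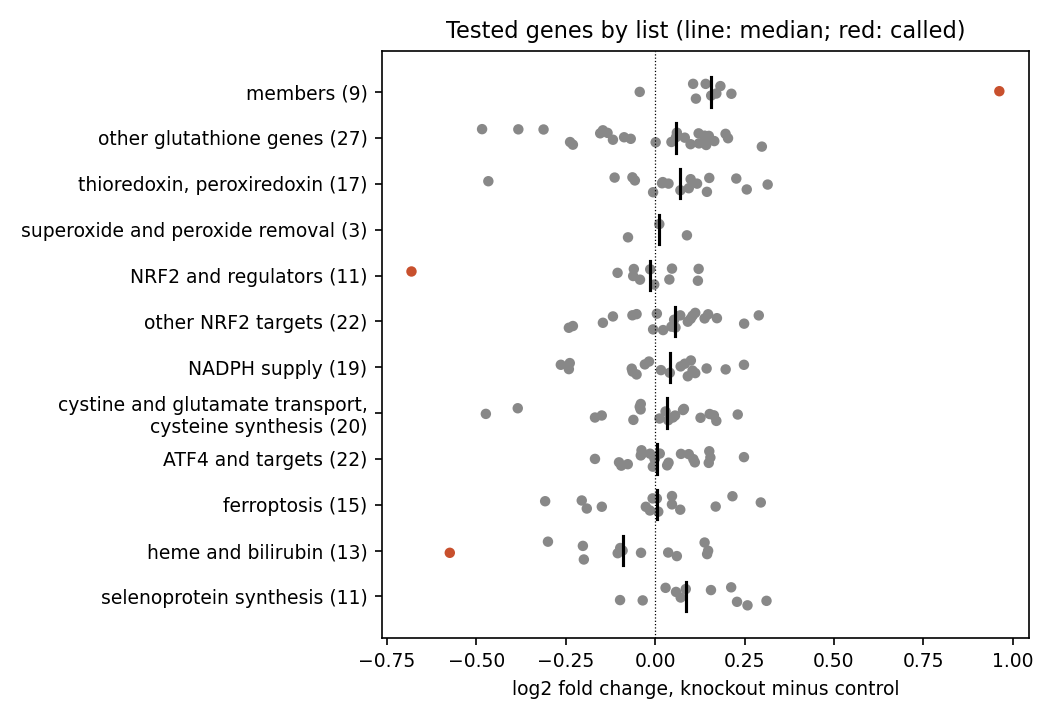
Log2 difference between knockout and control for each tested gene of the members and of the 11 lists, 1 point per gene, in red where called, with a line at each list's median. Slc7a11 is the red point on the right, and Bach2 and Cpox are the red points on the left. The list medians lie between -0.09 and 0.09.

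The genes with the profile most like that of Slc7a11 over the 4 libraries were Tagln, Pop1, Slc13a3, S100a13 and Tyrobp, by the Euclidean distance between centred log2(FPKM + 1) values (0.06, 0.11, 0.129, 0.145 and 0.153). With 4 libraries in 2 groups this likeness reflects a rise of similar size and little else. Tagln encodes a protein of the contractile cytoskeleton, Pop1 a subunit of RNase P and RNase MRP, Slc13a3 a dicarboxylate transporter, S100a13 a calcium-binding protein and Tyrobp an adaptor of microglial receptors. Slc13a3 was at nearly the level of Slc7a11, with 2.10 and 2.04 FPKM in control and 5.29 and 5.39 FPKM in knockout. These 5 genes rose by 0.86 to 1.05 on the log2 scale (limma adjusted p 0.00433 to 0.0119). The calls of Tagln, Slc13a3 and S100a13 were lost without either knockout library (adjusted p 0.0726 to 0.0882), that of Tyrobp also without control replicate 1 (adjusted p 0.0683 to 0.167), and that of Pop1 whichever library was removed (adjusted p 0.0608 to 0.111). In the authors' deposited table Tyrobp was not called (q = 0.134).

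Slc7a11 is also known from astrocytes and activated macrophages, and markers of other cells were read beside it, with the genes of these lists named after their values were seen. Of the 8 tested microglia and macrophage markers of 16 listed, 3 rose, namely Tyrobp, Laptm5 and Fcrls, 0 fell, and all 8 had both knockout libraries above both controls. Over all tested genes 0.528% were called higher and 22.6% had both knockout libraries above. The authors' deposited table called 5 of the 16 higher and 0 lower, against 1.74% higher of all genes it tested. Summed over the 16, their level was 20.1 and 22.2 FPKM in control and 38.4 and 43.3 FPKM in knockout. The microglial genes P2ry12 (means 0.122 FPKM in control and 0.114 FPKM in knockout) and Trem2 (0.0804 FPKM and 0.142 FPKM) were near 0, and none of the 16 was at 0 in every library. The calls of Laptm5 and Fcrls too depended on single libraries, Laptm5 losing it whichever library was removed (adjusted p 0.0642 to 0.111) and Fcrls without either knockout library (adjusted p = 0.0836 and 0.111). The part of these cells in the Slc7a11 difference was not tested. In bulk RNA, a change in the number of cells of a type and a change in RNA per cell cannot be told apart.

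Astrocyte markers, 12 genes, summed to 808.6 and 765.7 FPKM in control and 756.7 and 721.7 FPKM in knockout. With limma 0 of 11 tested were called, with 1 of the 11 differences positive and a median of -0.11. The authors' deposited table called 4 of the 12 lower and 0 higher, against 4.04% lower of all genes it tested. Gfap, the astrocyte filament gene, averaged 223.6 FPKM in control and 202.2 in knockout, so transcripts known from astrocytes were plentiful in both groups. Of the pericyte, smooth muscle and fibroblast list 2 of 9 were tested and both rose, Tagln and the actin gene Acta2. Over all tested genes 0.528% were called higher. Acta2 lost its call whichever library was removed. The list summed to 10.1 and 10.9 FPKM in control and 19.1 and 18.6 FPKM in knockout. Of these sums Tagln alone gave 7.04 and 7.35 FPKM in control and 14.6 and 14.6 FPKM in knockout. On average 7 of the 9 genes were below 1 FPKM, the collagen genes in both groups. Neuronal markers summed to 120.1 and 127.4 FPKM in control and 135.9 and 135.7 FPKM in knockout, with 0 of 3 tested called, and the 6 endothelial markers to under 1 FPKM in each library.

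Of the oligodendrocyte markers, 1 of 11 tested fell and 0 rose, where 0.783% of all tested genes were called lower. The gene that fell was Mbp, which encodes myelin basic protein, with 2683 and 2655 FPKM in control and 1501 and 1520 FPKM in knockout. Its difference was -0.82 (SE 0.068, limma adjusted p = 0.00504), and the call was lost whichever library was removed (adjusted p 0.0608 to 0.139). The 11 markers summed to 10937 and 11036 FPKM in control and 9194 and 9374 FPKM in knockout. That sum includes Mbp and is weighted to the most abundant genes. Gene by gene, 6 of the 11 differences were positive and the median was 0.02. An unadjusted limma p under 0.05 was reached by 4 lower and 1 higher of the 11. Over all tested genes 6.58% reached it lower and 7.13% higher. The authors' deposited table called 3 of the 11 lower and 0 higher, against 4.04% lower of all genes it tested. Precursor markers had 0 of 5 called and summed to 241.6 and 268.9 FPKM in control and 262.5 and 261.9 FPKM in knockout. The part of differences in maturation in the Slc7a11 difference was not tested.

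**Figure D5:**
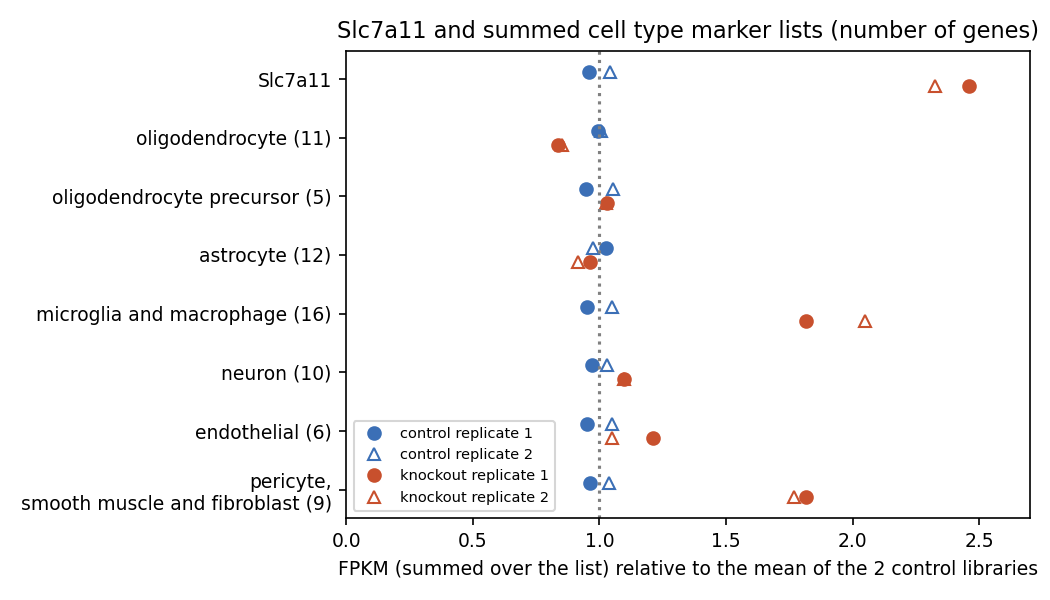
FPKM of Slc7a11 and summed FPKM of each marker list in the 4 libraries, relative to the mean of the 2 control libraries. The microglia and macrophage sum (20.1 and 22.2 FPKM in control, 38.4 and 43.3 in knockout) is higher in both knockout libraries, as is Slc7a11. The pericyte, smooth muscle and fibroblast sum, most of which is Tagln, is also higher in both knockout libraries. The oligodendrocyte sum (10937 and 11036 FPKM in control, 9194 and 9374 in knockout) is lower in both, and the astrocyte sum is slightly lower.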

How the data were processed

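Gene-level FPKM was computed by the authors for each sample and deposited with a status per row, per the file headers. CASAVA, TopHat, Cufflinks and Cuffdiff, with mm10, are the tools and build in the submitters' processing notes. The sources used here do not give the annotation or the strand setting. A deposited Cuffdiff table gives 1 FPKM per group, a log2 fold change, a test score and, per the file headers, a p-value with its q-value, and is quoted as the authors'.

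Rows sharing a symbol were summed (258 symbols), and 9 symbols were dropped because their status was not OK. Genes averaging 1 FPKM or more were fitted as log2(FPKM + 1) with limma 3.58.1 in R 4.3.3 (eBayes with an expression trend), knockout minus control, all 4 samples, Benjamini-Hochberg over 11361 genes, and called at an adjusted p under 0.05. The fit was tested on simulated data. The values hold no counts, and a count model was not applied. The commonest ratio among 561 rows under 0.1 FPKM gave depths of 0.93 to 1.16 relative to control replicate 1, and absolute depth is unknown.

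The members, lists and motifs were chosen with earlier results of these data known. The rule names the members, lncOL1, in each pathway list the 2 most abundant and the 2 of smallest p plus any called gene, and the 5 nearest profiles to Slc7a11. List genes were matched by symbol or RefSeq synonym. File starts were shifted to count from 1. Promoters were matched by symbol for 7 of the 10 members.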

Additional observations from a re-analysis of the deposited data

How the results depend on the processing

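Where a library is left out, the lone sample of its group is assumed to vary like the other group. The number of called genes, 149, became 4 with no filter on low values, where 17397 genes were tested, 341 with the replicate number as a block (replicate block), and 16 to 42 with each library left out. Same-numbered libraries did not deviate together (r = -0.052 across genes), so the numbers are not taken as pairs. Members called went from 1 to 0 with no filter, and to 0 with a minimum of 5 FPKM, which removes Slc7a11. With each library left out they were 0 or 1. Slc7a11 differed by 0.96 without a filter, no longer past the threshold, and by 0.92 to 1.0 with a library left out. TPM scaling, quantile normalization, a pseudocount of 0.1, the highest row per symbol, no trend and the block kept its call. With a library left out, Gpx4 ranged from -0.11 to 0.03 and Hmox1 from -0.02 to 0.36, and the other 7 tested members kept their direction under every alternative run. With no filter the 12 called genes named here other than lncOL1, Mbp included, lost their calls (adjusted p 0.06 to 0.159). Glo1, Gsto1, Txnip and Cbs passed under the block, and the first 3 under some other alternatives.

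Genes near 0 changed sign. After quantile normalization Fth1 was at -0.00026, Ftl1 at -0.01, Prdx2 at -0.03 and Sqstm1 at 0.01. With a library left out the ranges were -0.04 to 0.05 for Ftl1, -0.0036 to 0.03 for Glul, -0.08 to 0.08 for Gstm5, -0.17 to 0.04 for Prdx1, -0.02 to 0.06 for Prdx2, -0.05 to 0.11 for Sephs2, -0.09 to 0.11 for Sod1, -0.05 to 0.05 for Sqstm1 and -0.04 to 0.13 for Keap1. The cause was not tested. At low FPKM, as for Nqo1, few fragments limit the precision.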
